A study of Mus musculus with 15 samples.

Results

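The genes described are 10 neutrophil granule genes, taken by name from the deposited expression table: Mpo, Elane, Prtn3 and Ctsg for the primary granule, Ltf, Camp and Ngp for the secondary granule, S100a8 and S100a9 for the abundant S100 proteins of the cytosol, and Chil3. All 10 were among the 19938 genes that the table measured, each with a single probe set. They were chosen by function, with earlier results of these arrays known, and each was followed over the 4 groups that the sample titles give.

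Expression was measured on 15 Affymetrix MoGene 1.0 ST arrays of fetal liver cells from FVB/NJ mouse embryos at stage E14.5 (embryonic development). Cells had been separated on magnetic columns with beads against TER119, an antigen that red cell precursors gain as they mature. There were 3 arrays of TER119 positive cells labelled Klf3 knockout (KO), 4 of wild-type (WT) TER119 positive cells, 4 of KO-labelled TER119 negative cells and 4 of WT TER119 negative cells. The positive fraction had been selected and the negative fraction was what depletion left. The labels do not give the deleted part of Klf3, whether the deletion is limited to a cell type, or whether replicates were separate embryos or pools, so the p-values speak only for variation among these arrays, part of which may be technical. Precision is limited by the small number of arrays.

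Neutrophils store antimicrobial proteins in granules that are filled in order as the precursor matures. Primary granules are made at the promyelocyte stage and hold myeloperoxidase and serine proteases. Secondary granules follow at the myelocyte stage and hold lactoferrin and cathelicidin, and the S100A8 and S100A9 proteins accumulate in the cytosol as maturation goes on. The transcription factors PU.1 and C/EBP drive this programme, while GATA1 and KLF1 drive the red cell programme. KLF3 is a repressor that binds CACCC boxes and is itself induced by KLF1. In the mid-gestation mouse the fetal liver is the main site where both lineages are made.

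The 10 genes lie on 5 chromosomes in the RefSeq annotation of GRCm38.p6, and some are neighbours. Prtn3 and Elane have 0 protein-coding genes between them on chromosome 10, and S100a8 and S100a9 have 0 between them on chromosome 3, where Chil3 also lies. Camp, Ngp and Ltf lie on chromosome 9, with 8 protein-coding genes between Camp and Ngp and 20 between Ngp and Ltf. Mpo is on chromosome 11 and Ctsg on chromosome 14.

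Promoter windows of 300 bases (250 before to 50 after the gene's start, RefSeq, GRCm38.p6) were available for all 10 genes. Those of 4 are shown. Chil3 and Elane were picked as the members whose KO-labelled arrays all lay below the WT arrays in TER119 negative cells. The same held for 1.41% of all genes, and neither member passed limma's test there. Prtn3 was added as Elane's neighbour and Ngp as a secondary granule gene for comparison. Capitals mark the letters GAGGAA, the core that PU.1 recognises, and TTNNGNAA, a loose form of the C/EBP site, each on either strand. Elane is at chr10:79886062-79886361 (plus strand), Prtn3 at chr10:79879417-79879716 (plus strand), Ngp at chr9:110419558-110419857 (plus strand) and Chil3 at chr3:106167515-106167814 (minus strand).
Elane: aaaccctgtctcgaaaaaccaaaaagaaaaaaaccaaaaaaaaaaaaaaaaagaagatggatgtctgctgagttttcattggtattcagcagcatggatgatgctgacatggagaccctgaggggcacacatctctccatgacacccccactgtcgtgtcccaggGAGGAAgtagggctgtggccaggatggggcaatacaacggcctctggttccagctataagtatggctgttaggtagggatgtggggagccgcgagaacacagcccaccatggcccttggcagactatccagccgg
Prtn3: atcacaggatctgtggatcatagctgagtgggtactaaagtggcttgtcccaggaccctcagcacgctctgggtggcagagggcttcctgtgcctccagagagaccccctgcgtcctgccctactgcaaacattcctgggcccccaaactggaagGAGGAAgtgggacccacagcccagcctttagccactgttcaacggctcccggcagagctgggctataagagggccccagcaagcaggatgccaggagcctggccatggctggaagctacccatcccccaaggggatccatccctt
Ngp: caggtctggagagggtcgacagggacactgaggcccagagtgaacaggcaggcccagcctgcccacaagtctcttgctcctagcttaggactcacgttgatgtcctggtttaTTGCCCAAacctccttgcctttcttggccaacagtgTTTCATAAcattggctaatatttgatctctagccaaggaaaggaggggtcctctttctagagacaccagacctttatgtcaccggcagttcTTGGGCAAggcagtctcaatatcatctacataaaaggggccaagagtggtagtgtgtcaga
Chil3: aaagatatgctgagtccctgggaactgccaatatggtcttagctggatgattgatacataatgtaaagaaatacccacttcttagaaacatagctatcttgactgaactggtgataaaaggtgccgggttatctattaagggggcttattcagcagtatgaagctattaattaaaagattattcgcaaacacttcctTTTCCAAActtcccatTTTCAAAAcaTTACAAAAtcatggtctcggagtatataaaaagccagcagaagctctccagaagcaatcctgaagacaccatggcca
In Elane the GAGGAA letters began 85 bases before the start, and in its neighbour Prtn3 95 bases before it, in each case followed by GT. Ngp and Chil3 held 3 matches of the C/EBP letters each and 0 of the PU.1 letters.

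Over the 10 windows, GAGGAA was found in 6, against 28.3% of 32851 promoter windows in the table, and TTNNGNAA in 5, against 40.7%. No match of the C/EBP letters overlapped a match of the PU.1 letters. Mpo, Elane, Prtn3 and Ctsg, the 4 primary granule genes, each held GAGGAA and held 0 matches of TTNNGNAA, a split that was noticed after the matches were seen. Both motifs were present in S100a8 and Ltf, while S100a9 held the C/EBP letters and Camp neither. The letters CCNCNCCC, a loose form that covers the CACCC box KLF3 binds, were found in 5 windows (S100a9, Mpo, Ctsg, Ltf and Camp), against 49.5% of all windows. A match need not hold CACCC itself. Matches in S100a9, Ltf and Camp included it on 1 strand, while those in Mpo (GGGGGGGG) and Ctsg (GGGCGTGG) did not. Such matches describe letters in a window and are not binding sites.

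Facts of the whole array set bear on what follows. Array medians lay between 5.28 and 5.43 on the log2 scale, and correlations between arrays of a group between 0.971 and 0.995. Klf3 itself spanned 10.34 to 10.55 in KO-labelled and 9.94 to 10.50 in WT TER119 positive cells, and 8.02 to 8.74 in KO-labelled and 7.94 to 8.80 in WT TER119 negative cells, so Klf3 values overlapped between genotypes in both populations. Where its probes lie relative to the deletion is not given, so this neither checks nor contradicts the genotype, and "KO-labelled" is used for these arrays. On the first principal component within TER119 negative cells, which held 54.2% of the variance, KO replicate 4 and WT replicates 2 and 4 stood apart from the other 5 arrays. By Xist and Y-linked genes there were 1 male and 3 female KO-labelled against 4 male and 0 female WT arrays of TER119 negative cells, and 1 male and 2 female KO-labelled against 2 male and 2 female WT arrays of TER119 positive cells.

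The sorted fractions were described by marker lists. The 13 measured erythroid markers averaged 11.63 in KO-labelled and 11.64 in WT TER119 positive cells, against 8.79 in KO-labelled and 8.46 in WT TER119 negative cells. The 19 hepatocyte-lineage markers averaged 11.61 and 11.51 in KO-labelled and WT TER119 positive cells and 6.35 and 7.13 in KO-labelled and WT TER119 negative cells. The 17 macrophage and monocyte markers averaged 7.62 and 7.79 in KO-labelled and WT TER119 positive cells, against 5.96 and 6.06 in KO-labelled and WT TER119 negative cells. In WT, 19 of 19 hepatocyte-lineage markers were called higher in the positive fraction (median 4.32), where 23.5% of all genes were. By these lists that fraction held RNA of more than red cell precursors, and "TER119 positive cells" names the fraction as sorted.

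Neutrophil granule genes were far lower in the TER119 positive than in the TER119 negative fraction. Every member was lower in TER119 positive cells, by 11.8-fold (Prtn3) to 108-fold (S100a9) in WT cells. Among all 19938 genes, S100a9 had the largest fall between WT TER119 positive and WT TER119 negative cells, S100a8 the third largest and Ngp the tenth. In a bulk sample, fewer cells of a type and less RNA per cell cannot be told apart.

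Mpo encodes myeloperoxidase, which makes hypochlorous acid from hydrogen peroxide and marks the primary granule. Its log2 level was 6.46, 6.11 and 6.20 in KO-labelled TER119 positive cells and 6.53, 5.99, 5.95 and 5.81 in WT TER119 positive cells. The TER119 negative arrays gave 11.32, 11.31, 11.21 and 10.82 for KO-labelled cells and 11.33, 11.01, 11.62 and 10.97 for WT cells. Values overlapped between genotypes in each population, while the populations were separated by at least 4.29. The fall in TER119 positive cells was 5.16 in WT (SE 0.17, limma adjusted p = 5.74e-13) and 4.91 in KO-labelled cells (SE 0.19, limma adjusted p = 3.48e-12).

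Elane and Prtn3, neighbours on chromosome 10, encode neutrophil elastase and proteinase 3, serine proteases of the primary granule. Elane stood at 5.06, 4.81 and 5.15 in KO-labelled and 5.04, 5.15, 4.67 and 4.60 in WT TER119 positive cells. It stood at 9.32, 9.27, 8.83 and 9.23 in KO-labelled and 9.34, 9.69, 9.93 and 9.64 in WT TER119 negative cells, where the highest KO-labelled array was just below the lowest WT array. In TER119 negative cells Prtn3 stood at 8.36, 8.05, 7.64 and 8.32 in KO-labelled and 8.03, 8.39, 8.40 and 8.63 in WT arrays. In TER119 positive cells Prtn3 lay at 4.99, 4.98 and 4.55 in KO-labelled and 4.93, 4.69, 4.97 and 4.63 in WT arrays, and the genotypes overlapped in both populations. Elane was 17.8-fold lower in TER119 positive cells among KO-labelled and 27.5-fold lower among WT arrays, and Prtn3 9.54-fold and 11.8-fold lower.

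Ctsg encodes cathepsin G, the third serine protease of the primary granule. Its levels were 5.69, 5.13 and 5.21 in KO-labelled and 5.63, 5.04, 5.27 and 5.09 in WT TER119 positive cells, against 10.55, 9.90, 9.68 and 10.19 in KO-labelled and 9.98, 10.31, 10.33 and 10.38 in WT TER119 negative cells. Both the highest and the lowest value of that population were in KO-labelled arrays. Ctsg fell by 4.73 in KO-labelled (SE 0.20) and by 4.99 in WT cells (SE 0.18) between the populations.

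Among secondary granule genes, Ltf encodes the iron-binding protein lactoferrin. It stood at 6.10, 5.67 and 5.20 in KO-labelled and 5.68, 5.46, 5.05 and 5.18 in WT TER119 positive cells. In TER119 negative cells it stood at 10.22, 9.51, 9.62 and 9.32 in KO-labelled and 10.31, 10.19, 10.50 and 9.30 in WT arrays, so that WT replicate 4 was the lowest of the 8. Camp encodes cathelicidin, the precursor of an antimicrobial peptide, and gave 10.59, 9.58, 9.57 and 10.44 in KO-labelled against 9.99, 10.73, 10.66 and 10.75 in WT TER119 negative cells. KO replicates 2 and 3 lay below all WT arrays for Camp, and KO replicates 1 and 4 lay within their range. Camp in TER119 positive cells ran between 4.80 and 5.37 in KO-labelled and between 4.66 and 4.88 in WT arrays.

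Ngp, neutrophilic granule protein, is a cystatin-like protein of the secondary granule. The KO-labelled arrays of TER119 positive cells had 6.85, 6.47 and 5.78 and the WT arrays 6.29, 6.04, 5.38 and 5.85. Levels were 11.84, 11.43, 11.66 and 11.59 in KO-labelled and 11.94, 12.11, 11.97 and 11.29 in WT TER119 negative cells. As for Ltf, WT replicate 4 was lowest and the genotypes overlapped. Between the populations the log2 difference of Ngp was -5.26 in KO-labelled (SE 0.25) and -5.94 in WT cells (SE 0.23). That of Ltf was -4.01 in KO-labelled (SE 0.28) and -4.74 in WT cells (SE 0.26), and that of Camp -4.95 in KO-labelled (SE 0.24) and -5.74 in WT cells (SE 0.23).

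S100a8 and S100a9 encode calcium-binding proteins that pair as calprotectin, which sequesters zinc and manganese from microbes. S100a8 stood at 7.47, 6.45 and 6.15 in KO-labelled and 6.09, 5.91, 5.32 and 5.76 in WT TER119 positive cells, without overlap. S100a9 stood at 6.92, 6.30 and 6.02 in KO-labelled and 6.24, 5.95, 5.44 and 5.50 in WT TER119 positive cells, where KO replicate 3 lay within the WT range. In TER119 negative cells S100a8 read 12.46, 11.61, 11.43 and 12.12 in KO-labelled against 11.85, 12.55, 12.18 and 12.14 in WT arrays, and S100a9 read 12.59, 12.19, 12.18 and 12.48 against 12.42, 12.77, 12.49 and 12.48. The 2 genes moved together: over the 15 arrays their deviations from the group means had a Pearson r of 0.90, the highest of the 45 pairs of members. Both genes were read from the same RNA on each array, so r is a description.

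Chil3 encodes Ym1, a chitinase-like lectin of neutrophil granules that alternatively activated mouse macrophages also make. In TER119 positive cells it stood at 4.43, 4.19 and 4.35 in KO-labelled and 4.48, 4.71, 4.41 and 4.23 in WT arrays, and the genotypes overlapped. In TER119 negative cells Chil3 stood at 9.46, 8.64, 9.26 and 9.07 in KO-labelled and at 9.84, 10, 10.23 and 9.77 in WT cells, and all 4 KO-labelled arrays lay below all WT arrays. The fall between the populations was 4.78 in KO-labelled (SE 0.17) and 5.50 in WT cells (SE 0.16).

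**Figure D1:**
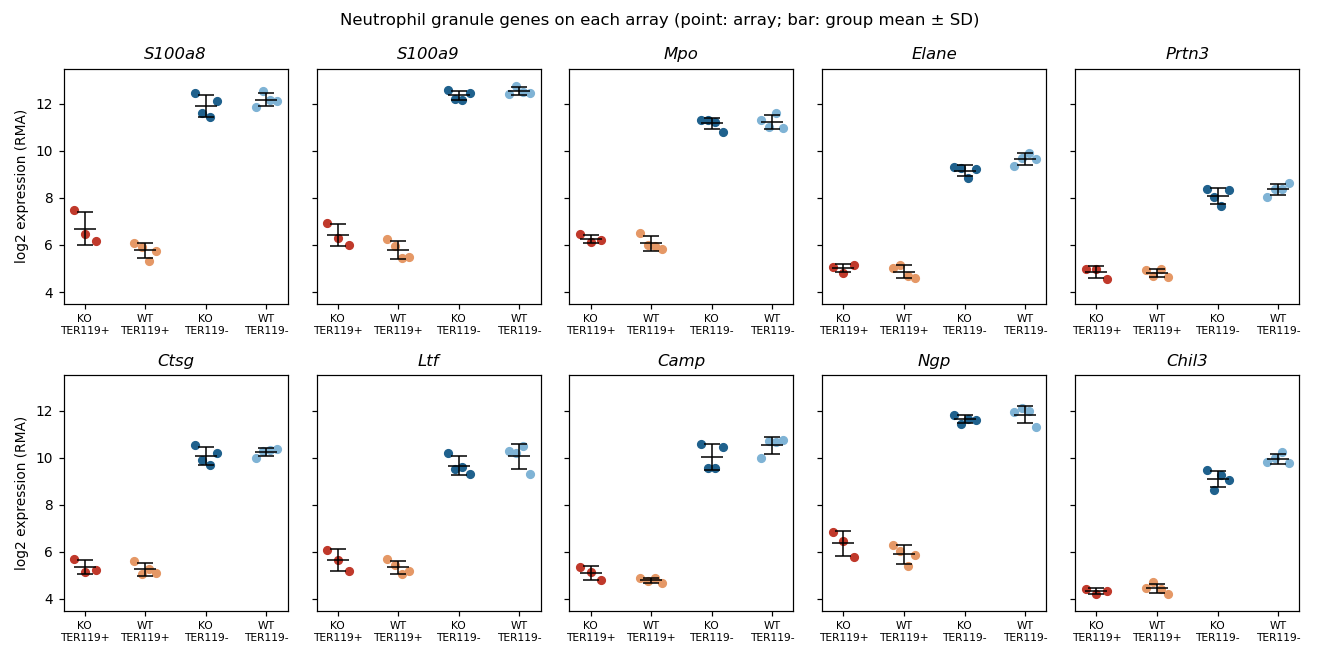
Log2 expression of the 10 granule genes (vertical axis, RMA values) on each of the 15 arrays in the 4 groups on the horizontal axis, where points are arrays and black bars are group means ± SD. Each gene has all TER119 positive arrays below all TER119 negative arrays. In TER119 negative cells the genotypes are apart for Chil3 and, narrowly, for Elane, as they are in this direction for 1.41% of all genes.

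The order of group means was the same for 9 of the 10 members: WT TER119 negative cells were highest, then KO-labelled TER119 negative, KO-labelled TER119 positive and WT TER119 positive cells. Chil3 differed in that its WT TER119 positive mean (4.46) was above its KO-labelled one (4.32). Neighbouring groups overlapped in their arrays except at the step between the populations, within TER119 negative cells for Chil3 and Elane, and within TER119 positive cells for S100a8. Among all genes, 1.41% had KO-labelled arrays all below WT arrays in TER119 negative cells. In TER119 positive cells 5.29% had them all above.

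The comparison of populations asked which genes mark the cells that TER119 depletion leaves. In WT cells all 10 members passed limma's test as lower in TER119 positive cells (adjusted p between 1.03e-13 and 1.48e-10), where 29.1% of all genes were called lower and 23.5% higher. Their arrays did not overlap between the populations, as was so for 24.7% of all genes in this direction in WT and 30.9% in KO-labelled cells. The median difference of the members was -5.33, against -0.0875 for all genes, and all 10 were among the 100 genes with the largest falls. In KO-labelled cells all 10 were called lower as well (adjusted p between 1.53e-12 and 3.2e-09), where the background was 26.5%, with a median of -4.84 against -0.0585 for all genes. All 10 were again among the 100 largest falls. RMA compresses dim signals and no detection calls were used here, so folds against low TER119 positive levels can be understated.

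Genes that work with the granule proteins were also lower in WT TER119 positive cells. Of 10 companions of the primary granule, all 10 were called lower (median -4.55). Among them Ms4a3, a membrane protein of granulocyte and monocyte progenitors, fell by 6.22 (SE 0.21), and Cst7, which encodes the protease inhibitor cystatin F, fell by 5.99 (SE 0.13). Ctsc, whose product cathepsin C activates the granule serine proteases, fell by 0.43 (SE 0.13, limma adjusted p = 0.0103), and in KO-labelled cells it was the 1 companion that did not pass (-0.15, limma adjusted p = 0.425). Of 13 companions of secondary and tertiary granules 12 were called lower in WT cells (median -2.93), such as Mmp8, the neutrophil collagenase (-6.18), and Lcn2, the siderophore-binding lipocalin (-4.90). Bpi, which was counted in this list and not among the primary companions, did not pass, with group means of 4.32 to 4.48 in the 4 groups. Its placement does not speak for the granule that holds its protein.

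Receptors and late genes of mature neutrophils were called lower in 9 of 9 cases in WT cells (median -1.89). Retnlg, a resistin-like secreted protein, fell by 6.07 (SE 0.21), Ly6g, the surface antigen used to define mouse neutrophils, by 4.91 (SE 0.18), and Csf3r, the G-CSF receptor, by 1.89 (SE 0.24). Of 5 measured subunits of the phagocyte NADPH oxidase, 4 were called lower. Cybb, the catalytic subunit, fell by 2.58 (SE 0.14), and Cyba did not pass (0.10, limma adjusted p = 0.705).

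Regulators of the granulocyte lineage were mixed: of 15, 8 were called lower and 5 higher in WT TER119 positive cells (median -0.63). Cebpe, which drives secondary granule genes, fell by 1.42 (SE 0.14) and the repressor Gfi1 by 1.08 (SE 0.11), while Gfi1b, its erythroid relative, rose by 1.86 (SE 0.17). The C/EBP genes were split: Cebpd (-1.05, SE 0.11) and Cebpg (-0.45, SE 0.12) were called lower as well. Cebpa (0.47, SE 0.19) and Cebpb (0.69, SE 0.14) were called higher, as were Trib1 (0.59) and Ets1 (0.68). Spi1, which encodes PU.1, fell by 1.40 in WT TER119 positive cells (SE 0.20, limma adjusted p = 1.85e-05). In KO-labelled cells the same comparison went the other way, and Spi1 rose by 1.13 (SE 0.22, limma adjusted p = 0.000385). Protease inhibitors were mixed too: of 5 measured, 2 were called lower and 2 higher in WT TER119 positive cells (median 0.32). Serpinb1a, an inhibitor of elastase and cathepsin G, fell by 5.85 (SE 0.17), with means of 4.70 (TER119 positive) and 10.56 (TER119 negative). Slpi (-2.70) was also called lower, while Serpinb6a (1.37) and Serpina3n (1.70) were called higher.

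Markers of related granulocytes were lower as well. Of 7 eosinophil markers 6 were called lower and 1 higher in WT TER119 positive cells, and Prg2, the eosinophil major basic protein gene, had WT means of 5.87 (TER119 positive) and 12.06 (TER119 negative). Of 13 mast cell and basophil markers 8 were called lower, led by Cpa3, a mast cell carboxypeptidase (-5.36), and 1 higher. Macrophage and monocyte markers ran the other way, with 14 of 17 called higher and 2 lower, Ccr2 (-4.83), a receptor of circulating monocytes, being the largest of the falls. The S100 relatives did not follow S100a8 and S100a9 as a group: of 15 genes of the family and its receptors 8 were called lower and 2 higher, with a median of -0.29. Of 13 progenitor markers 9 were called lower and 1 higher (median -0.83). How far each of these cell types contributed to the granule gene levels was not tested.

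**Figure D2:**
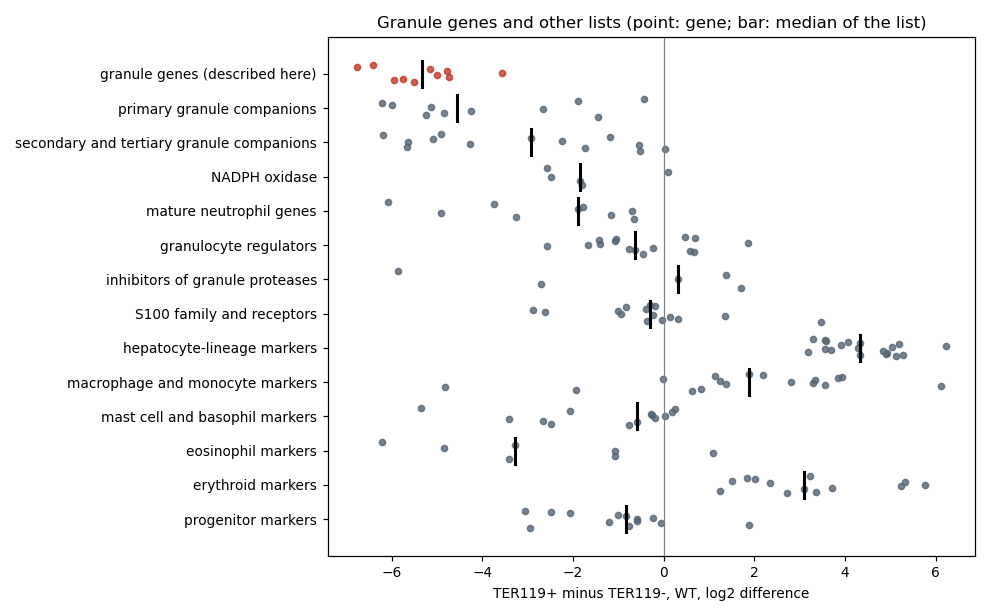
Log2 difference between WT TER119 positive and WT TER119 negative cells (horizontal axis) for each gene of the listed groups (rows), where points are genes and black bars are list medians. The granule genes lie between -6.76 and -3.56, while hepatocyte-lineage and erythroid markers lie above 0.

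The next comparison asked whether loss of Klf3 changed these genes in TER119 negative cells. None of the 10 members passed limma's test (lowest adjusted p = 0.0583), where 0.0853% of all genes were called. At an unadjusted limma p under 0.05, which at least 1472 of the 19938 genes met, there were 3 members, Chil3, Elane and Camp. The 10 differences were all below 0, between -0.85 and -0.07, with a median of -0.27 against -0.0161 for all genes. Genes measured on the same cell mixtures are not independent, and the shared sign is a description.

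Chil3 was the furthest from 0. Its mean was 9.11 ± 0.35 (SD, n = 4) in KO-labelled and 9.96 ± 0.20 (SD, n = 4) in WT cells. The difference was -0.85 (SE 0.16, limma adjusted p = 0.0583), 1.8-fold lower. This ranked 16th among the lowest differences of all genes. Array weights gave -1.01 (limma adjusted p = 0.0379), quantile normalization -0.95 (limma adjusted p = 0.0416) and omission of KO replicate 1 -0.97 (limma adjusted p = 0.0226), each past the threshold. The other settings did not pass, with limma adjusted p of up to 0.56, and the difference stayed between -1.01 and -0.70 in all 18.

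Elane averaged 9.16 ± 0.22 in KO-labelled and 9.65 ± 0.24 in WT cells (SD, n = 4 each), a difference of -0.49 (SE 0.15; limma adjusted p = 0.622). Chil3 and Elane were the 2 members whose KO-labelled arrays all lay below the WT arrays, where 1.41% of all genes did. Camp differed by -0.49 (SE 0.23, limma adjusted p = 0.655), at 10.04 ± 0.55 in KO-labelled and 10.53 ± 0.36 in WT cells (SD, n = 4 each). The smallest difference was that of Mpo, -0.07 (SE 0.17), whose 95% interval ran from -0.43 to 0.30. The others lay between -0.41 (Ltf) and -0.17 (Ctsg), with limma adjusted p between 0.676 and 0.779.

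Among TER119 negative arrays, only KO replicate 1 was highest in its group for the whole set. It had the highest value of the 4 KO-labelled arrays for all 10 members, and KO replicate 3 had the lowest for 6. In WT cells the highest values were split over replicate 2 (3 members), replicate 3 (4 members) and replicate 4 (3 members). WT replicate 4 also had the lowest value for 4 members. The mean of the 10 genes was 10.67, 10.15, 10.11 and 10.36 in KO-labelled against 10.50, 10.78, 10.83 and 10.54 in WT cells. KO replicate 1 thus lay within the WT range and the other KO-labelled arrays below it. Omission of KO replicate 1 moved the median difference to -0.41, and omission of KO replicate 3 moved it to -0.165.

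Other cell types varied on the same arrays. All 19 hepatocyte-lineage markers were lower in KO-labelled cells and 0 passed limma's test (median -0.83), with list means of 5.66 to 7.15 in KO-labelled and 5.84 to 8.15 in WT arrays. The defining markers Alb and Afp averaged 9.26 and 8.47 in KO-labelled and 10.31 and 9.34 in WT cells. All 13 erythroid markers were higher and 0 passed (median 0.35), with list means of 8.45 to 9.16 in KO-labelled and 8.09 to 8.84 in WT arrays. With the hepatocyte-list mean as a covariate the median difference of the granule genes was -0.175 and that of Chil3 -0.81 (limma adjusted p = 0.195). Without the 3 arrays that stood apart these were -0.255 and -0.91 (limma adjusted p = 0.409), and with sex as a factor -0.22 and -0.90 (limma adjusted p = 0.299). The part of the hepatocyte-lineage and erythroid levels in the granule gene differences was not tested beyond these values.

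**Figure D3:**
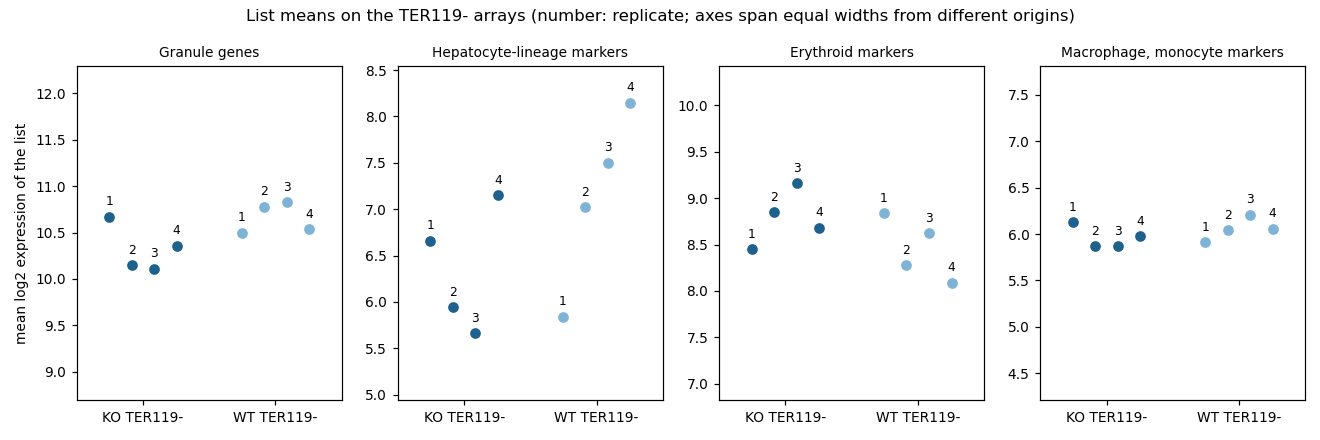
Mean log2 expression (vertical axis) of the granule genes and 3 marker lists on each TER119 negative array, with KO-labelled arrays left and WT arrays right in each panel and the replicate number above each point; the axes span equal widths but start at different levels. The granule genes average 10.11 to 10.67 in KO-labelled and 10.50 to 10.83 in WT arrays, and hepatocyte-lineage markers spread more widely in both genotypes.

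Companions of the granule genes were not called in KO-labelled TER119 negative cells either. Of the 13 secondary and tertiary companions all differences were below 0 and 0 passed (median -0.28). The smallest p was that of Orm1, an acute-phase protein gene (-0.77, SE 0.16, limma adjusted p = 0.134), which stood at 5.34 in KO-labelled and 6.11 in WT cells. Of the 10 primary companions 9 were below 0 and 0 passed (median -0.26), with Fcnb, a ficolin lectin of granulocyte precursors, at -0.51 (SE 0.17). Mmp8, of the secondary and tertiary companions, was at -0.60. Of the 9 mature neutrophil genes 8 were below 0 and 0 passed (median -0.16). They ran from Retnlg (-0.64) to Csf3r (0.16), with Ly6g at -0.49. The 5 oxidase subunits were all below 0 and 0 passed (median -0.16), with Cybb the lowest (-0.43). The 7 eosinophil markers were all below 0 with 0 called (median -0.27).

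Regulators showed less displacement, with 0 of 15 called and a median of -0.06. The smallest p were those of Cebpd (-0.30, SE 0.11, limma adjusted p = 0.644), Ets1 (-0.22, SE 0.14) and Irf8 (-0.19, SE 0.12). Cebpe was at 5.85 and Gfi1 at 5.52 in KO-labelled against 5.85 and 5.58 in WT cells. Serpinb6a, an intracellular serpin whose human counterpart inhibits cathepsin G, rose by 1.62 in KO-labelled TER119 negative cells (SE 0.14, limma adjusted p = 4.57e-05), while Serpinb1a differed by -0.28. The list that holds these serpins was chosen with the Serpinb6a result known.

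In TER119 positive cells the same comparison was made at low levels. None of the 10 members passed (lowest limma adjusted p = 0.327), where 1.02% of all genes were called. At an unadjusted limma p under 0.05, which at least 979 of the 19938 genes met, there were 2 members, S100a8 and S100a9. Of the 10 differences 9 were above 0 and Chil3 was below (median 0.24, against -0.00971 for all genes). S100a8 averaged 6.69 ± 0.69 (SD, n = 3) in KO-labelled and 5.77 ± 0.33 (SD, n = 4) in WT cells. They differed by 0.92 (SE 0.29, limma adjusted p = 0.327). S100a8 was the 1 member whose KO-labelled arrays all lay above the WT arrays, as 5.29% of all genes did. S100a9 differed by 0.63 (SE 0.21, limma adjusted p = 0.383) and Ngp by 0.48 (SE 0.25, limma adjusted p = 1).

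These values were smaller without KO replicate 1. It held the highest value of the 3 KO-labelled arrays for 9 of the 10 members, and without it S100a8 differed by 0.53, S100a9 by 0.38, Ngp by 0.24 and the median member by 0.10. The list means were 5.93, 5.53 and 5.34 in KO-labelled against 5.58, 5.37, 5.13 and 5.13 in WT cells. Levels of the other 6 members differed by 0.32 (Ltf) or less, with limma adjusted p of 1, and Chil3 by -0.13 (SE 0.17). Spi1 rose by 2.36 in the same arrays (SE 0.22, limma adjusted p = 5.85e-06), to 9.04 in KO-labelled against 6.68 in WT cells. Of the companions, 0 of 10 primary, 0 of 13 secondary and tertiary, 0 of 5 oxidase and 0 of 9 mature neutrophil genes passed, with medians of -0.08, 0.01, 0.08 and 0.05. S100a10, another S100 family gene, rose by 1.56 (SE 0.27, limma adjusted p = 0.00516).

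**Figure D4:**
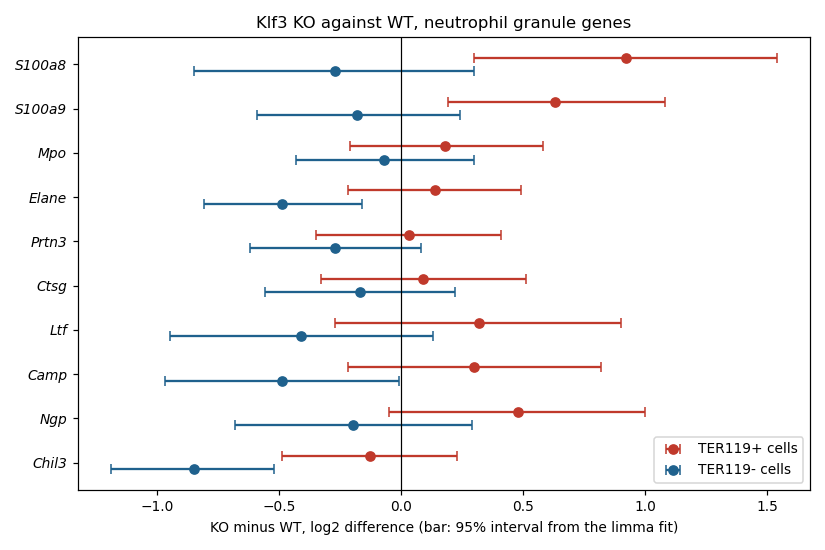
Log2 difference between KO-labelled and WT cells (horizontal axis) for each granule gene (rows), with TER119 positive cells in red and TER119 negative cells in blue and bars giving 95% intervals of the limma fit. In TER119 negative cells all 10 points lie below 0, from -0.85 to -0.07, and in TER119 positive cells 9 lie above 0.

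Whether the genotype difference itself differed between the populations was tested as an interaction. For none of the 10 members did the interaction pass (lowest limma adjusted p = 0.618), where 0.436% of all genes were called. At an unadjusted limma p under 0.05, which at least 852 of the 19938 genes met, there were 5 members. These were Chil3 (0.72, SE 0.23), S100a8 (1.19, SE 0.40), S100a9 (0.81, SE 0.29), Elane (0.62, SE 0.23) and Camp (0.79, SE 0.33). All 10 interaction terms were above 0 (median 0.70, against 0.000229 for all genes). Hepatocyte-lineage markers were above 0 in 19 of 19 cases (median 0.94) and erythroid markers below 0 in 13 of 13 (median -0.35). Genes of the same cell mixtures are not independent, so the shared sign is a description. Among all genes, TER119 positive means of the members lay between percentiles 17.1 (Chil3) and 66.3 (S100a8) in KO-labelled arrays. In WT arrays they lay between 20.7 (Chil3) and 59.3 (Mpo). Whether compression of dim signals shaped the differences was not tested. Spi1 passed the interaction test among the regulators (2.53, SE 0.30, limma adjusted p = 0.000216) and Serpinb6a among the inhibitors (-1.03, SE 0.21, limma adjusted p = 0.037).

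Genes whose deviations from their group means ran most like those of the mean of the 10 members were named by Pearson r over the 15 arrays. They were Olfr60 (0.89), Ost4 (0.88), Serpinb1a (0.86), Bud31 (0.86), Trim26 (0.84), Fam214b (0.83), Srxn1 (0.83), Serpinb6b (0.83), Cst7 (0.81) and Vmn1r74 (0.81). Serpinb1a and Cst7 also shared the population pattern, at 10.28 and 9.99 in KO-labelled and 10.56 and 10.29 in WT TER119 negative cells, against 5.19 and 4.29 in KO-labelled and 4.70 and 4.30 in WT TER119 positive cells. Olfr60 had group means of 3.84 to 3.97 and Vmn1r74 of 4.52 to 4.66, without that pattern. The genes nearest to Chil3 were Atp6v1c1 (0.86), Pilrb2 (0.83), Asb7 (0.80), Ap1s2 (0.79) and Clec4a1 (0.78), and those nearest to Mpo were Haus8, Dap3, Bicd2, Eipr1 and Asrgl1 (0.91 each). None of these genes is a member.

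Members fell into looser and tighter pairs by the same measure. Beside S100a8 with S100a9, the closest over all 15 arrays were Ltf with Ngp (0.87), Prtn3 with Camp (0.86) and Ctsg with Camp (0.81). The lowest pairs were Mpo with Camp (-0.11) and Mpo with Prtn3 (-0.06), while Mpo with Ltf gave 0.70 and with Ngp 0.47. With 8 TER119 negative arrays alone, S100a8 and S100a9 gave 0.97 and S100a9 and Mpo -0.35, while in the 7 TER119 positive arrays S100a9 and Mpo gave 0.81. All genes of an array come from the same RNA, so these values describe the arrays and carry no test.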

How the data were processed

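Per the labels, RNA of magnetically sorted cells was hybridised to 1-colour MoGene 1.0 ST arrays, and the submitters' processing notes name RMA and Partek, with versions and number of runs not given in the sources used here. The deposited values are log2 expression per probe set, from 2.91 to 14.26. Of 35399 probe sets, 21789 had 1 gene symbol in the platform's table and 1621 several, which were left out with the unnamed ones; the probe set with the highest mean was kept per gene (19938 genes). Group means were fitted to all 15 arrays with limma (version 3.58.1, R version 4.3.3; 11 residual and 4.91 prior degrees of freedom), with Benjamini-Hochberg adjustment over all genes, 2-sided, threshold 0.05. The code was tested on simulated data. The members, lists and tests were chosen with earlier results of these data known. Named are all members, list genes past the threshold (in long lists, examples) or up to 3 with the smallest p, and genes most alike by Pearson r. No 2 arrays of a group were identical (smallest SD of a difference 0.19). Deviations of same-numbered KO-labelled and WT arrays of a population correlated between -0.38 and 0.65, above 0.1 in some pairs but not in every pair. The labels give no shared origin, so the replicate number entered an alternative only. Deviations of same-numbered positive and negative arrays were not compared. Errors of levels are SDs and of differences SEs.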

Additional observations from a re-analysis of the deposited data

Results flagged for a closer look

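Of 30 checks of a member in a group of 4 arrays, 1 singled out an array, and chance singles out about 1 in 20. Camp in WT TER119 negative cells stood at 9.99 in replicate 1, with the nearest of the other 3 arrays at 10.66, a gap of 0.872 of the group's range. WT replicate 1 also had the lowest value of the 4 for 6 of the 10 members. The groups of 3 were not checked.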

How the results depend on the processing

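All 10 members were called lower in TER119 positive cells in WT and in KO-labelled arrays under each setting run, and 0 members were called in TER119 positive cells or in the interaction under any. In TER119 negative cells the count of called members was 0, and 1 (Chil3) with quantile normalization, with array weights and, over single omitted arrays, 0 to 1. The sign of Mpo there changed when an array was omitted (range -0.16 to 0.06). In TER119 positive cells Prtn3 was -0.03 with the replicate block and -0.04 to 0.18 over omitted arrays, and Ctsg -0.08 to 0.21. With the replicate block, Chil3 in TER119 negative cells had a limma adjusted p of 0.138; the block changed no call of a member. As defined here, the block joined same-numbered KO-labelled and WT arrays within a population, so it was not fitted to the population comparisons. The titles use the same numbers in both populations, and a block joining positive and negative fractions of the same number was not run. The interaction has no fit on fewer groups. The number of genes called in TER119 negative cells was 17 in the main analysis and ran from 4 to 31 over all settings; it ran from 148 to 386 (203) in TER119 positive cells, 60 to 130 (87) for the interaction, 4939 to 10934 (10486) for the populations in WT and 3999 to 11927 (9777) in KO-labelled cells. With quantile normalization the median change of a gene's value on an array was at most 0.0427 in size. The causes of these changes were not tested. Without detection calls, low TER119 positive levels can limit the folds, and how far they did was not tested.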
